A study of Arabidopsis thaliana with 12 samples.

Results

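GER1 (AT1G72610), GER2 (AT5G39190) and GER3 (AT5G20630) are 3 germin-like protein genes of Arabidopsis thaliana, followed here by gene ID among the 27655 genes of a boron supply experiment. GER1 and GER3 had counts in every library, and GER2 had none in any. The genes were chosen by the mRNA difference between low boron and Ctrl, since GER3 had been named before among the largest falls there. Low boron values of the 3 genes are therefore a description, with no test, and the high boron values were tested. Wild-type Col-0 seedlings were grown for 14 days on MGRL medium, and whole shoots of about 300 plants were pooled per replicate. The medium held 0.3 µM boric acid (low boron), 30 µM (Ctrl) or 500 µM (high boron). All plants had 16 h of light and 8 h of dark, and each supply had 2 biological replicates of RNA-seq and 2 of ribosome profiling, 12 libraries in all. Ribosome profiling sequences the mRNA pieces that ribosomes cover, the footprints, and counts here are those within coding sequences.

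Germins were first described in germinating wheat, and cereal germins are oxalate oxidases that release hydrogen peroxide. Germin-like proteins share the cupin fold of germins, are secreted, and sit in or near the cell wall, where superoxide dismutase activity has been reported for several of them. The GER3 transcript is known to cycle over the day, and the RNA-binding protein GRP7, itself under clock control, has been reported to influence that cycle.

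Libraries held 7563365 to 9256564 RNA counts and 6903881 to 24206655 footprint counts, and 19748 to 21160 genes had a count in a library. The mRNA of NIP5;1 (AT4G10380), a boric acid channel that serves boron uptake under shortage, had 807 and 698 counts at low boron, 96 and 100 in Ctrl and 42 and 46 at high boron. BOR1 (AT2G47160), the other gene listed as a check of boron supply, was not called in mRNA. Its log2 differences from Ctrl were 0.04 at low boron and -0.18 at high boron (edgeR, adjusted p = 0.782 and 0.305). BOR1 footprints fell at high boron (-2.06, edgeR, adjusted p = 0.000431), where 1.98% of all genes were called. The 6 markers of green shoot tissue had 4742 or more RNA counts each in every library. The 8 markers of root endodermis and root hairs summed to 0.866 to 1.70 CPM (counts relative to TMM-scaled library totals) in mRNA, with CASP5 at 0 in every RNA library. In footprints these 8 summed to 0.758 to 3.93 CPM, with up to 16 counts of CASP2 in a library. In bulk shoots, fewer cells of a type and less RNA per cell cannot be told apart.

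GER3 mRNA was lowest at low boron, intermediate at high boron and highest in Ctrl. In libraries 2 and 3 it had 254.0 and 231.4 CPM at low boron, 1227 and 1216 CPM in Ctrl, and 812 and 896 CPM at high boron. The underlying counts were 2245 and 1942 at low boron, 11089 and 10551 in Ctrl, and 6324 and 8273 at high boron. The 3 groups did not overlap, and each step between neighbours in this order was larger than the spread within either group. Levels were 243 ± 16.0 CPM at low boron, 1222 ± 7.51 CPM in Ctrl and 854 ± 59.3 CPM at high boron (SD, n = 2). The gap between low boron and Ctrl follows from how GER3 was chosen. The share of all genes whose groups lie apart like this was not computed, here or for the separations given below. With 2 libraries per group, such separation is weak evidence. The low boron level was 5.03-fold lower than in Ctrl, a log2 difference of -2.33 ± 0.09 (SE), and ranked 11 of 18403 genes from the most negative. Here and below, the SE of a log2 difference is its absolute value divided by the square root of the edgeR F statistic. In that comparison 33.3% of all genes passed an adjusted p of 0.05, 19.5% higher and 13.8% lower, which is given as background only. High boron and low boron differed by 1.81 ± 0.09 on the log2 scale, higher at high boron.

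At high boron GER3 mRNA fell, by 0.52 ± 0.08 on the log2 scale relative to Ctrl, which is 1.43-fold lower (edgeR quasi-likelihood test, Benjamini-Hochberg adjusted p = 0.00101 over all genes). Both high boron libraries were under both Ctrl libraries. GER2 could not be tested, and GER3 was called while GER1 was not, where 9.06% of all genes were called, 4.50% higher and 4.55% lower. The Ctrl libraries are the same ones that served the low boron comparison. Choosing GER3 on that comparison favours high Ctrl values, and so a fall here, which the p-value does not allow for.

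**Figure D1:**
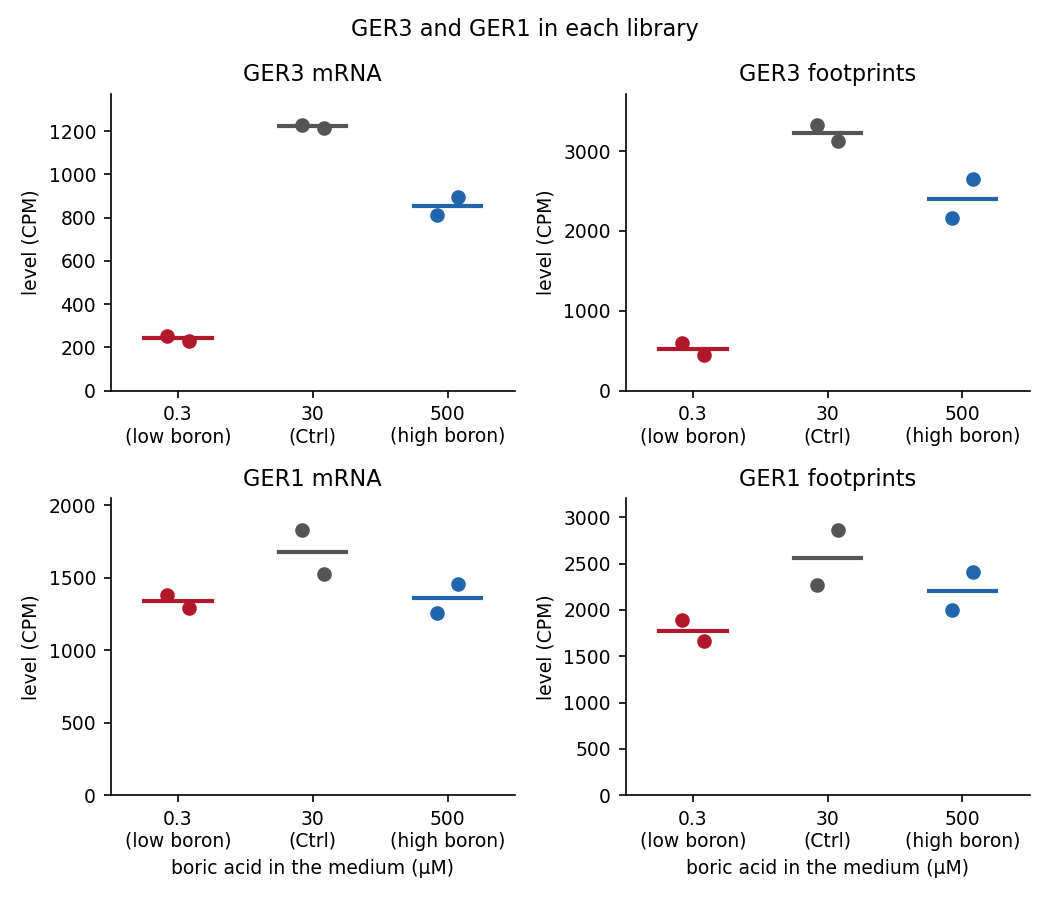
Levels of GER3 and GER1 in CPM (y axes from 0) at 0.3, 30 and 500 µM boric acid (x axes), for mRNA and for footprints; points are single libraries and bars mark the mean of the 2 libraries. GER3 sits at 231.4 to 254.0 CPM of mRNA at low boron, under all libraries of the other supplies, whereas the GER1 groups lie closer together.

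Ribosome footprints on GER3 followed the same order of supplies. They stood at 596 and 450 CPM at low boron, 3321 and 3128 CPM in Ctrl, and 2163 and 2644 CPM at high boron. The low boron libraries lay far under all others, and the high boron libraries lay under both Ctrl libraries. The footprint level at low boron was 523 ± 103 CPM, against 3224 ± 137 CPM in Ctrl (SD, n = 2), a log2 difference of -2.62 ± 0.23 and 6.17-fold lower. It ranked 8 of 17697 genes from the most negative, where 15.0% of all genes were called, 8.05% higher and 6.92% lower.

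High boron footprints of GER3 averaged 2404 ± 340 CPM, a log2 difference of -0.42 ± 0.21 from Ctrl that missed the threshold (edgeR, adjusted p = 0.500, unadjusted p = 0.0666). Neither GER3 nor GER1 was called in footprints at high boron by edgeR, also at an unadjusted p of 0.05, and DESeq2 called neither of them. The share of all genes called was 1.98%, 0.463% higher and 1.51% lower. The mRNA call and the missed footprint call do not show that both readouts differ, and the test of that difference is given with the footprints per mRNA.

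GER1 levels lay closer together across supplies. Its mRNA had 1381 and 1290 CPM at low boron, 1828 and 1523 CPM in Ctrl, and 1258 and 1457 CPM at high boron. The low and high boron libraries overlapped each other, and both pairs lay under both Ctrl libraries. Group means were 1336 ± 64.3 CPM at low boron, 1676 ± 216 CPM in Ctrl and 1357 ± 141 CPM at high boron (SD, n = 2). Low boron and Ctrl differed by -0.33 ± 0.10 on the log2 scale. High boron and Ctrl differed by -0.30 ± 0.10, which missed the threshold (edgeR, adjusted p = 0.0764). That side of the threshold rested on single libraries, with an adjusted p of 0.00294 and a difference of -0.43 without Ctrl library 3, and 0.0374 and -0.42 without high boron library 3. With no filter on low counts the adjusted p was 0.00455. High and low boron differed by 0.02 ± 0.10, less than the spread between libraries.

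GER1 footprints stood at 1887 and 1663 CPM at low boron, 2267 and 2862 CPM in Ctrl, and 2001 and 2407 CPM at high boron. Both low boron libraries were under all others, and the high boron libraries overlapped those of Ctrl. The log2 difference from Ctrl was -0.53 ± 0.21 at low boron and -0.22 ± 0.21 at high boron (edgeR, adjusted p = 0.817 at high boron). From low to Ctrl to high boron the means were 1775 ± 159, 2565 ± 421 and 2204 ± 287 CPM (SD, n = 2).

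**Figure D2:**
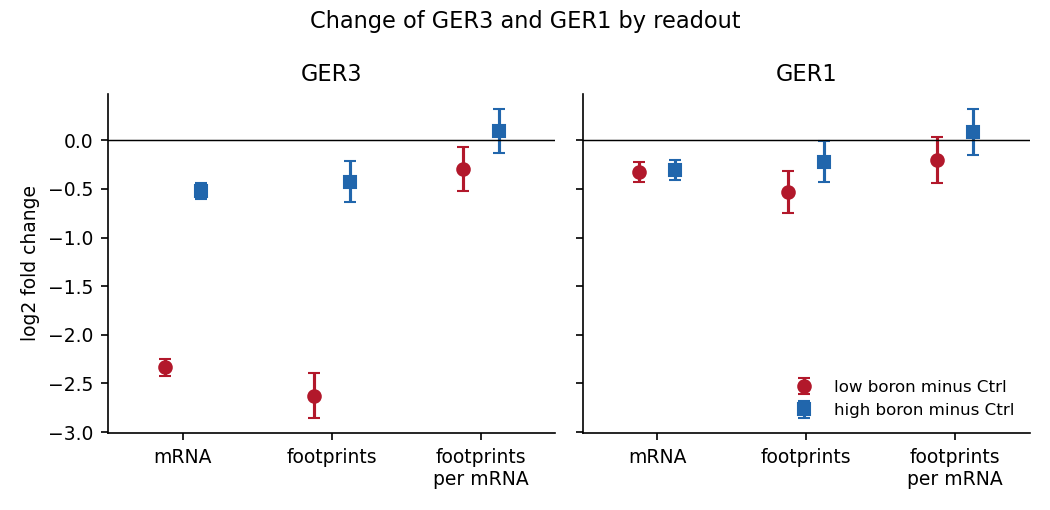
Log2 fold changes from Ctrl (y axis) of GER3 and GER1 in mRNA, footprints and footprints per mRNA (x axis), at low and at high boron; points are edgeR estimates and bars are ± SE. The GER3 points at low boron lie at -2.33 for mRNA and -2.62 for footprints, and the footprints per mRNA lie near 0 for both genes.

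GER2 had 0 counts in all 12 libraries. A count of 0 allows up to 3 counts, which is 0.324 to 0.397 CPM per RNA library and 0.124 to 0.435 CPM per footprint library, for counting error only. Of the listed germin-like genes with neighbouring IDs, the 7 from AT5G39100 to AT5G39180 had 0 to 20 counts per library. AT5G39150 and AT5G39180 were at 0 throughout. The handling of reads that fit more than 1 gene is not stated, and GER2 was not detectable at this depth and with this counting. The symbols GER1 and GER2 also belong to AT1G73250 and AT1G17890 in the gene table, which are other genes and were not used.

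The footprint difference of GER3 at low boron was close to its mRNA difference. Translation efficiency, meaning footprints per mRNA of a gene, differed from Ctrl by -0.29 ± 0.23 for GER3 and by -0.20 ± 0.24 for GER1 at low boron, on the log2 scale in 1 edgeR fit over both assays. At high boron the differences were 0.09 ± 0.23 for GER3 (edgeR, adjusted p = 0.955) and 0.09 ± 0.24 for GER1 (adjusted p = 0.962). Neither gene was called at high boron by edgeR or DESeq2, where 0.734% of 17306 genes were called, 0.0347% higher and 0.699% lower. Neither had an unadjusted p under 0.05. The sign of GER3 there turned without high boron footprint library 3 (-0.087), and that of GER1 turned without library 2 of Ctrl mRNA (-0.05), high boron mRNA library 2 (-0.03), Ctrl footprint library 2 (-0.088) or high boron footprint library 3 (-0.084). At low boron 0.0231% of all genes, 4 in number and all higher, were called.

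GER3 had more footprints per mRNA than most genes at every supply. Its ratio of mean footprint CPM to mean mRNA CPM was 2.15 at low boron, 2.64 in Ctrl and 2.81 at high boron. Pairing single libraries gave 1.77 to 2.58 at low boron, 2.55 to 2.73 in Ctrl and 2.41 to 3.26 at high boron, so the groups overlapped. These ratios stood above those of 97.6%, 97.9% and 97.4% of all genes at low boron, Ctrl and high boron, where the median gene had 0.717, 0.752 and 0.761. GER1 had ratios of 1.33, 1.53 and 1.62 in the same order of supplies, above 86.4%, 87.5% and 87.8% of genes. The ratio is relative within each assay and is not a number of ribosomes per mRNA.

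The ratio of GER3 to GER1 within a library does not depend on how libraries are scaled. In mRNA there were 18.4 and 17.9 GER3 counts per 100 GER1 counts at low boron, 67.1 and 79.9 in Ctrl, and 64.6 and 61.5 at high boron. In footprints there were 31.6 and 27.0 at low boron, 147 and 109 in Ctrl, and 108 and 110 at high boron. Low boron libraries stood apart from all others in both assays, with log2 differences from Ctrl of -2.01 in mRNA and -2.11 in footprints. High boron and Ctrl differed by -0.22 in mRNA and -0.22 in footprints, and the exact two-sided permutation test gave p = 0.333 and p = 0.667, where the smallest p that 2 against 2 libraries allow is 0.333. GER1 and GER3 together took 0.162% and 0.151% of RNA counts at low boron, against 0.304% and 0.271% in Ctrl, and 0.213% and 0.235% at high boron.

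**Figure D3:**
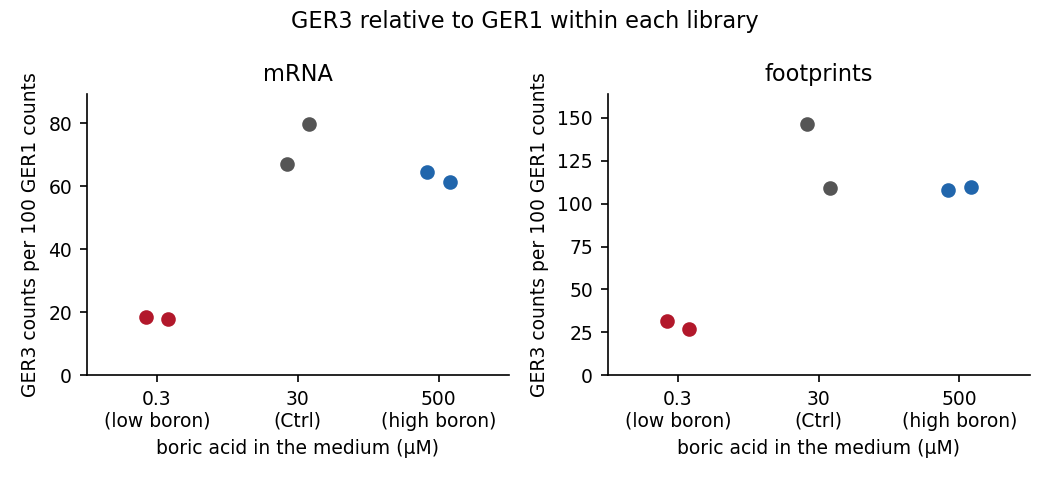
GER3 counts per 100 GER1 counts in each library (y axes from 0) at 0.3, 30 and 500 µM boric acid (x axes), for mRNA and for footprints. Points are single libraries. Low boron libraries stand at 17.9 to 18.4 in mRNA and 27.0 to 31.6 in footprints, and Ctrl and high boron libraries lie at 61.5 or more in mRNA and 108 or more in footprints.

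Most other germin-like genes were too low to test in these shoots. Of 30 listed relatives, 9 had 0 counts in all 12 libraries, and 7 passed the low-count filter in mRNA, 8 in footprints and 6 in both assays. The gene table names 8 of the 30 as germin-like proteins and leaves 22 without such a name. At low boron the mRNA of 2 of the 7 rose and that of 1 fell, with a median log2 difference of -0.05 against 0.02 over all genes, where 33.3% of all genes were called, so that 3 of 7 is near the background. At high boron 2 of 7 fell and none rose, with a median of -0.11 against -0.01 and 9.06% of all genes called.

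GLP5 (AT1G09560), a germin-like protein of plasmodesmata, rose at low boron while GER3 stood lower there. Its mRNA had 146 and 155 CPM at low boron and 49.5 and 65.1 CPM in Ctrl, a log2 change of 1.40 ± 0.12 (edgeR, adjusted p = 6.67e-07). Footprints on GLP5 rose as well, to 245 and 256 CPM at low boron, against 125 and 130 CPM in Ctrl (0.98 ± 0.19, edgeR, adjusted p = 0.00303). At high boron GLP5 mRNA fell, with 36.7 and 45.8 CPM, by 0.47 ± 0.13 on the log2 scale (edgeR, adjusted p = 0.036). That call was lost without either low boron library (adjusted p = 0.0721 without library 2 and 0.0709 without library 3), without Ctrl library 3 (0.237) and without high boron library 2 (0.320). The footprint difference of GLP5 at high boron missed the threshold (-0.27 ± 0.19, edgeR, adjusted p = 0.716).

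AT5G38940 also rose at low boron in mRNA and fell at high boron. It had 50.8 and 60.1 CPM at low boron, 36.6 and 41.3 CPM in Ctrl, and 29.9 and 21.8 CPM at high boron. The log2 changes were 0.51 ± 0.13 at low boron and -0.60 ± 0.14 at high boron (edgeR, adjusted p = 0.00714 and 0.0148). Without low boron library 3 the first had an adjusted p of 0.123, and without high boron library 3 the second had 0.157. AT3G10080 fell at low boron, with 6.56 and 7.98 CPM against 13.3 and 11.6 CPM in Ctrl (-0.78 ± 0.19, edgeR, adjusted p = 0.00542, and 0.0744 without low boron library 2). At high boron it had 19.3 and 15.4 CPM, a difference of 0.47 ± 0.17 that missed the threshold (edgeR, adjusted p = 0.107).

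In footprints 8.05% of all genes rose at low boron and 6.92% fell. The relatives gave 1 rise among 8 there, that of GLP5, with a median log2 difference of 0.09 against 0.00 over all genes. Without Ctrl footprint library 2, or without either high boron footprint library, 2 of them were called. None of 8 was called at high boron by edgeR, with 2 at an unadjusted p under 0.05, where 1.98% of all genes were called. DESeq2 gave 7 of the relatives an adjusted p there and called none. In translation efficiency edgeR called none of 6 at either supply, and none had an unadjusted p under 0.05. DESeq2 also called none, with an adjusted p for 6 at low boron and 5 at high boron. Over all genes edgeR called 0.0231% at low boron and 0.734% at high boron.

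**Figure D4:**
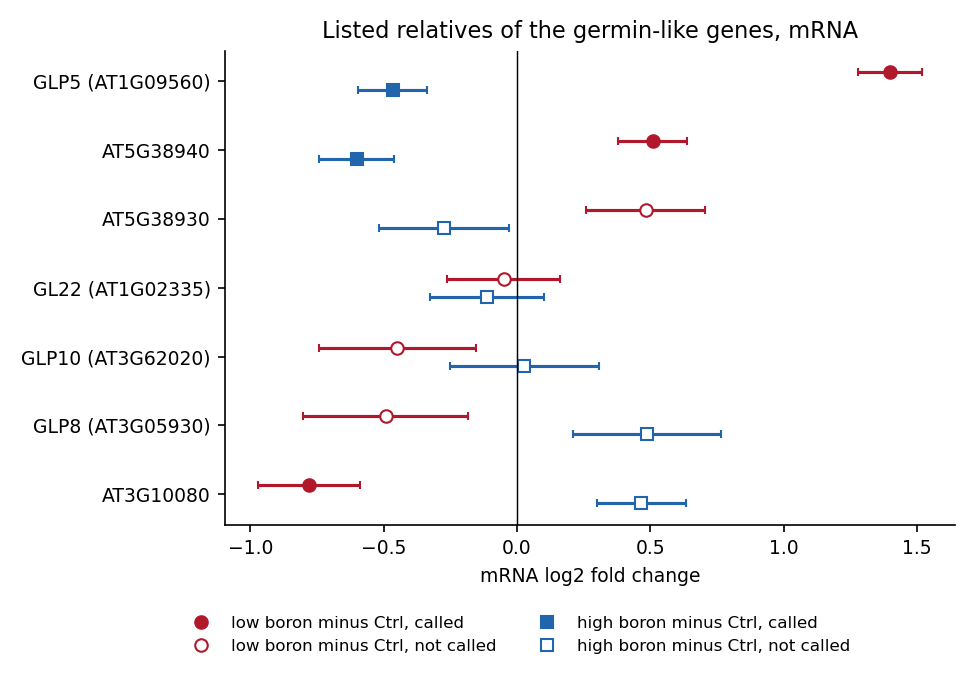
mRNA log2 fold changes from Ctrl (x axis) of the 7 listed relatives that passed the low-count filter (rows), at low boron (circles) and at high boron (squares), with ± SE bars; filled symbols passed an adjusted p of 0.05. GLP5 lies at 1.40 at low boron and -0.47 at high boron, and AT3G10080 at -0.78 and 0.47.

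Clock genes changed in mRNA in both directions at both boron supplies, and how these changes relate to GER3 was not tested. Of 23 clock genes and clock-linked RNA-binding protein genes, all of them tested, the mRNA of 6 rose and that of 10 fell at low boron, and 6 rose and 9 fell at high boron. Over all genes 19.5% rose and 13.8% fell at low boron, and 4.50% rose and 4.55% fell at high boron. Median log2 differences were -0.22 against 0.02 over all genes at low boron, and -0.00 against -0.01 at high boron. The largest changes at low boron were those of RVE2 (-2.08 ± 0.19), RVE8 (1.78 ± 0.30) and CCA1 (1.48 ± 0.16), MYB-like transcription factors of the clock. At high boron they were those of CCA1 (1.85 ± 0.16), AT5G64170, the clock gene LNK1 (1.46 ± 0.09), and RVE2 (-1.31 ± 0.17). Footprints gave fewer calls, with 1 higher and 4 lower at low boron and 1 higher and 3 lower at high boron, where 15.0% and 1.98% of all genes were called. In translation efficiency none of the 23 was called at low boron by edgeR or DESeq2, with 1 at an unadjusted p under 0.05 in edgeR. Over all genes edgeR called 0.0231% at low boron and 0.734% at high boron. DESeq2 gave 17 of the 23 clock-list genes an adjusted p at high boron. There 1 was called by either tool, LNK1, whose efficiency fell by 1.66 ± 0.17 on the log2 scale (edgeR, adjusted p = 0.000139). Its footprints differed from Ctrl by -0.20 ± 0.18 there and were not called.

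GRP7 (AT2G21660) fell at both supplies in mRNA. It had 1587 and 1759 CPM at low boron, 3301 and 3187 CPM in Ctrl, and 1698 and 1778 CPM at high boron. The log2 changes were -0.96 ± 0.08 at low boron and -0.90 ± 0.08 at high boron (edgeR, adjusted p = 8.22e-07 and 1.16e-05). Its footprints missed the threshold, with -0.53 ± 0.22 and -0.38 ± 0.22 (adjusted p = 0.122 and 0.585). GRP8 (AT4G39260), the closest relative of GRP7, differed by -0.22 ± 0.08 at low boron and -0.03 ± 0.08 at high boron in mRNA (edgeR, adjusted p = 0.0596 and 0.880). The low boron value passed in 6 of 12 alternatives. These were the fits without Ctrl library 3 (adjusted p = 0.0158), high boron library 2 (0.0298) or high boron library 3 (0.0417), with DESeq2 size factors (0.0444), with no filter (0.0351) and with the filter of 50 mean counts (0.0455). Its direction was the same in all 12, and the high boron value turned sign without Ctrl library 2 (0.052) or high boron library 2 (0.047). The time of day at harvest is not in the labels, and the part of the clock genes in the GER3 values was not tested.

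At low boron 13.8% of all genes fell in mRNA and 19.5% rose. Markers of green shoot tissue fell there in 5 of 6 cases (edgeR, adjusted p up to 0.0475). Their summed mRNA level was 17741 to 17923 CPM at low boron, against 23567 to 24834 CPM in Ctrl, and 23606 to 24421 CPM at high boron. At high boron LHCB2.2 (0.82 ± 0.09) and LHCA1 (0.40 ± 0.08) rose and RBCS2B (-0.45 ± 0.11) fell, on the log2 scale (edgeR, adjusted p up to 0.0205). Over all genes 4.50% rose and 4.55% fell there. In footprints the marker sum was 11480 to 13045 CPM at low boron, against 15279 to 18034 CPM in Ctrl. It was 13901 to 18450 CPM at high boron. At low boron 2 of 6 markers were called lower in footprints, LHCA1 and RBCS2B, where 6.92% of all genes were. The part of green tissue in the GER3 and GER1 values was not tested.

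Superoxide dismutases have the activity that is reported for several germin-like proteins. Of 7 genes, 5 fell and 1 rose in mRNA at low boron, with a median log2 difference of -0.41 against 0.02 over all genes, of which 13.8% fell and 19.5% rose. DESeq2 called 3 of those falls and the rise. The cytosolic copper/zinc enzyme gene CSD1 was the 1 that rose, with 423 and 457 CPM at low boron, against 293 and 316 CPM in Ctrl (0.53 ± 0.08, edgeR, adjusted p = 0.000122). CSD2, the chloroplast copper/zinc enzyme gene, had 580 and 556 CPM at low boron, against 748 and 755 CPM in Ctrl (-0.40 ± 0.08, edgeR, adjusted p = 0.000813).

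In footprints 5 of the 7 fell at low boron and none rose, where 6.92% of all genes fell and 8.05% rose. FSD1, an iron superoxide dismutase gene, had 9.14 and 9.12 CPM at low boron, against 38.9 and 18.3 CPM in Ctrl (-1.67 ± 0.27, edgeR, adjusted p = 0.000822). At high boron FSD2, a chloroplast iron enzyme gene, fell in mRNA (-0.40 ± 0.09, edgeR, adjusted p = 0.0121), where 4.55% of all genes fell. DESeq2 called none of the 7 in mRNA there. No footprint change of the 7 was called at high boron by edgeR or DESeq2, with 2 at an unadjusted p under 0.05 in edgeR. Over all genes edgeR called 1.98% there. No efficiency change of the 7 was called at either supply by either tool. Over all genes edgeR called 0.0231% in efficiency at low boron and 0.734% at high boron.

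Genes with a pattern like that of GER3 were ranked by the root-mean-square difference in log2 CPM, centred within each assay, over the 12 libraries and 17219 genes. The nearest was COR15B (AT2G42530), a cold-regulated gene for a chloroplast stroma protein, at 0.242. PnsL3 (AT3G01440), a subunit of the chloroplast NDH complex, stood at 0.265, AT1G31690 at 0.283 and GolS2 (AT1G56600), a galactinol synthase gene, at 0.293. Their mRNA differed from Ctrl by -1.83, -1.92, -1.75 and -2.15 at low boron and by -0.02, -0.60, 0.11 and -0.43 at high boron, in that order on the log2 scale. The ranking used the low boron libraries in which GER3 was low, so the low boron values of these genes follow from how they were picked.

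GER1 was nearest to LIN2 (AT1G03475), a coproporphyrinogen oxidase gene of tetrapyrrole synthesis, at 0.0718 and RCA, the rubisco activase gene, at 0.0807, followed by AT4G33480 at 0.0873 and AT2G42690 at 0.0884. GER1 and GER3 were 0.933 apart, with GER1 at rank 2830 of 17219 in nearness to GER3 and GER3 at rank 16614 in nearness to GER1. The libraries share their scaling and 2 replicates per supply, and the distances are a description.

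**Figure D5:**
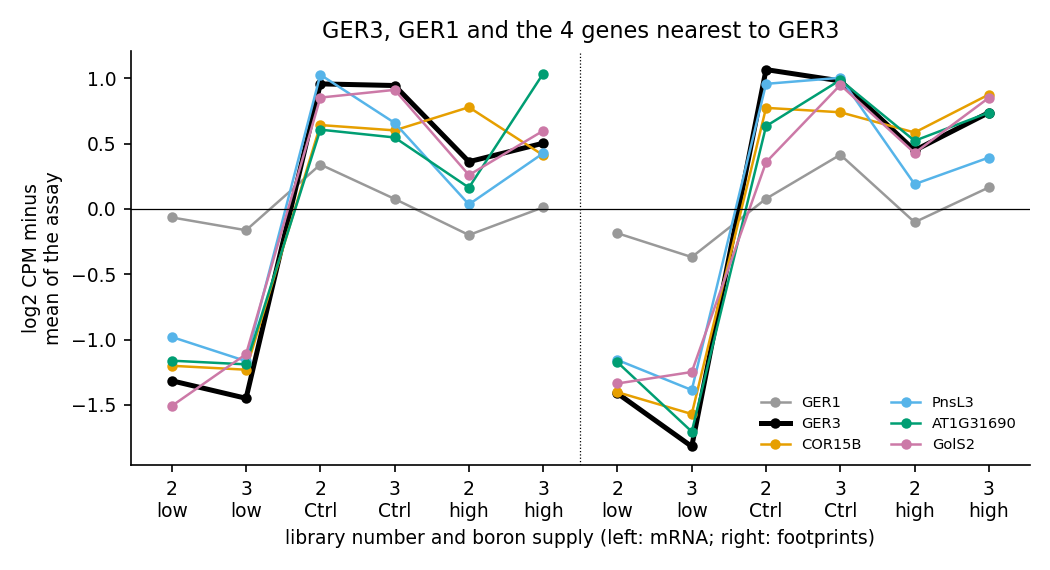
Centred log2 CPM (y axis) of GER3, GER1 and the 4 genes nearest to GER3 in each of the 12 libraries (x axis), centred on the mean of each assay; lines join the libraries of 1 gene. The 4 genes were picked for their closeness to the GER3 line, its low boron values included, so the shared shape is the choice itself; GER1 is drawn beside them.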

How the data were processed

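The authors deposited raw counts per gene, 1 table per assay, with 1 transcript for each gene and counts within coding sequences, per the file headers and names. Bowtie2 and SAMtools were used, per the submitters' processing notes. Their versions, the genome build, strand use and the treatment of shared reads are not given in the sources used here, and no coordinates are printed. Names were looked up in RefSeq genes of TAIR10.1, where 27445 of 27655 IDs were found. The columns are numbered 2 and 3 but the labels 1 and 2, so columns were assigned to groups by name and libraries are called by their column number.

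All 3 groups of an assay were fitted together in R 4.3.3 with edgeR 4.0.16 (quasi-likelihood test, TMM scaling, filterByExpr, Benjamini-Hochberg over all genes, threshold 0.05), with 18403 genes tested in mRNA and 17697 in footprints. Efficiency was the assay by supply interaction over 17306 genes. Levels are CPM after TMM. The members and gene lists were chosen with earlier results of these data known. Named were the 3 members, the relatives and clock genes with the 3 largest called changes per comparison, GRP7, GRP8 and the 4 genes nearest to each member. The superoxide dismutases, green tissue markers, NIP5;1 and BOR1 that are named were picked after their values were seen. On simulated 2-fold changes for high boron against Ctrl the procedure recovered 97.5% in mRNA (18317 genes tested), 71.5% in footprints (17586) and 41.5% in efficiency (17180). The changes were placed only in genes with over 50 mean counts in both assays, with 1 replicate spread for all genes of an assay. These rates do not stand for all genes tested. Alternatives were DESeq2 1.42.0, DESeq2 size factors within edgeR, no filter, a filter of 50 mean counts per group, removal of organelle genes, a replicate block and leaving out each library.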

Additional observations from a re-analysis of the deposited data

How the results depend on the processing

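With 2 libraries per group, single libraries weigh heavily. GER3 kept its side of the threshold and its direction in mRNA at high boron in 12 of 12 alternatives (-0.59 to -0.44, adjusted p up to 0.0135), and its footprint difference there was called in none (adjusted p 0.328 to 0.796). Each of these alternatives still used Ctrl libraries on which GER3 was chosen, so the lean towards a fall stays in all of them. With libraries left out, low boron differences of GER3 ran from -2.40 to -2.27 in mRNA and -2.84 to -2.43 in footprints, and those of GER1 from -0.45 to -0.19 and -0.69 to -0.35. GER1 mRNA at high boron ran from -0.43 to -0.17 and passed with no filter (-0.31, adjusted p = 0.00455). Efficiency at high boron changed sign with libraries left out, from -0.088 to 0.25 for GER1 and -0.087 to 0.23 for GER3, and GRP8 mRNA at high boron ran from -0.11 to 0.052. Of the relatives, 2 rather than 1 were called in low boron footprints with no filter, the replicate block or organelle genes removed. Over all genes at low boron, mRNA calls were 3938 with DESeq2 and 3731 to 6102 with a library left out, footprint calls 922 to 2924, and efficiency calls 12 with DESeq2, 1 with the filter of 50, 2 with the replicate block and 0 to 9 with a library left out. At high boron, mRNA calls were 927 with DESeq2 and 784 to 1894, footprint calls 668 with no filter, 209 with the filter of 50 and 131 to 310, and efficiency calls 36 to 206. The cause was not tested. Within an assay, equal-numbered libraries did not deviate together in all groups (r = -0.0198 to 0.156), so the numbers were not treated as pairs. Whether RNA and footprint libraries of the same number and supply belong together was not tested. With the replicate block GER3 mRNA at high boron was -0.52 (edgeR, adjusted p = 0.00169).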
